A study of Mus musculus with 38 samples.

Results

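The spleen cells of untreated DBA/2 mice were set against pooled bone marrow cells of that strain, the reference of every array,, to ask which genes an undisturbed spleen holds at a higher or lower level than the marrow. The samples are those titled as control spleen: 10 of the 38 array measurements of the series, from 5 of its 19 mice, with 2 technical measurements per mouse. Cells of each mouse were harvested independently, no treated mouse was used, and the labels give neither age nor sex. On every array the spleen RNA was labelled with Cy5 and the marrow RNA with Cy3, and no dye swap was made. A dye effect of a probe therefore cannot be told apart from a difference between the tissues and could not be removed. The reference is described in its cell type field as untreated marrow, whereas its treatment field names cyclophosphamide, an alkylating drug that depletes dividing marrow cells. The conflict could not be settled, and it bears on every ratio given here, because the reference does not cancel. The log base is taken as 2, which the sources used here do not give. The pool is a single reference RNA, so the spread between marrow samples is left out of all tests.

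The spleen filters blood and holds lymphoid follicles. Its white pulp is built of B cell follicles, which follicular stromal cells organise with the chemokine CXCL13, and of T cell zones. Its red pulp holds macrophages that clear aged red cells and return their iron, lined by sinus endothelium. The marrow makes neutrophils, monocytes, red cells, platelets and early B cells, and stores most of the body's maturing neutrophils, whose precursors fill their granules with proteins in a fixed order.

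A measurement gave 6891 to 9051 log2 ratios over 13443 probes, and 8728 probes (64.9%) had a value in 3 or more mice and were tested. A single gene is named by 6413 of the tested probes, which cover 6216 genes. The technical measurements of a mouse correlated at 0.904 in animal 1, 0.651 in animal 2, 0.803 in animal 3, 0.581 in animal 4 and 0.944 in animal 5 (Pearson's r across probes of shared RNA, as a description). Animals 2 and 4 were therefore the least precisely measured. In animal 4, 7.38% and 7.19% of the values of its measurements were exact repeats of another value of that measurement, against 1.97% to 5.01% elsewhere, and most of its repeats lay between log2 0.7 and 1.1. A further set of probes carried the same ratio as the hemoglobin probe of Hba-a1 within log2 0.002. On at least 5 of the 10 measurements this held for 17 probes, Hba-a1 itself, Ppia, Rpl6, Rps6, Rps23, Tpt1, Actg1 and Ptma among them. Such ratios are not specific to a gene, and no such probe is named as a result here. The probes did stay in the counts and list medians, and 3 of the 17 were called. Without values shared with Hba-a1, the cytosolic ribosomal list had 25 tested genes in place of 28, with 3 called either way. The part of repeated values in the results was not tested beyond leaving them out, which changed the call of 1 of 82 named genes.

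A probe was called where the mean ratio of the mice differed from 0 at an adjusted p below 0.05 (limma's moderated test, two-sided, Benjamini-Hochberg over 8728 probes). In all 582 probes (6.67%) were called, 245 higher in spleen (2.81%) and 337 higher in the marrow pool (3.86%), and 2101 had an unadjusted p below 0.05. Every measured mouse lay on the same side of 0 for 573 of the 582. A mean difference of at least log2 1 was reached by 65 of the higher and 92 of the lower calls. With the measurements centred on probes present throughout, 293 probes were called higher and 268 lower, so the calls were 52.2% higher in place of 42.1%. Without animal 1 the calls were 203, and without animal 5 they were 247.

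**Figure D1:**
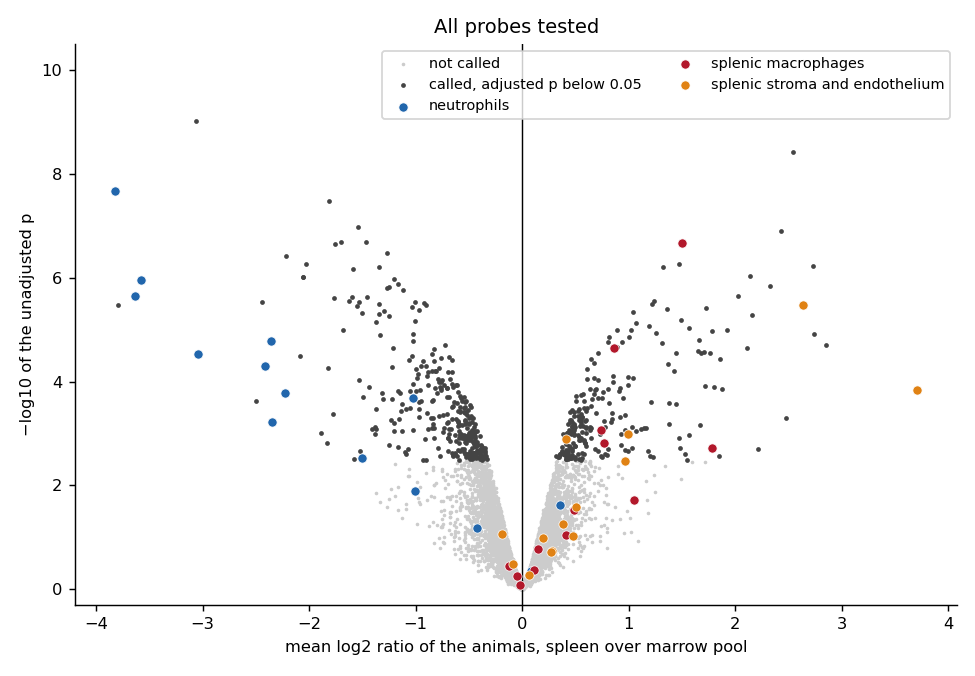
Mean log2 ratio of spleen over marrow pool (x axis) against −log10 of the unadjusted p (y axis) for the 8728 probes tested, each point a probe, with genes of 3 lists in colour. Neutrophil genes make up much of the far left, with 10 of 14 called lower, and 4 of 14 stromal and 5 of 13 macrophage genes are called on the right. The neutrophil list was used to read the direction of the ratio, so its side is no finding.

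The 4 named genes with the highest means were Cxcl13, Smoc2, Plvap and Clu, of which Cxcl13 and Clu belong to the list of splenic stroma and endothelium. Cxcl13, the chemokine that draws B cells into follicles, had log2 ratios of 5.77, 4.71, 3.76, 1.52 and 2.81 in animals 1 to 5. All mice lay above 0, although animal 4 was far below animal 1, and 1 measurement of animal 1 sits at 6.0, the bound of the deposited ratios, so that its value there is a lower limit. The mean was 3.71 ± 1.65 (SD, n = 5), a 13.1-fold difference (95% interval 5.53 to 31.0, adjusted p = 0.00781). Smoc2, a secreted calcium-binding matrix protein, had ratios of 3.27, 3.01, 1.55, 2.38 and 4.03 (7.19-fold, adjusted p = 0.0022). Plvap, which forms the diaphragms of endothelial fenestrae, had 3.28, 2.54, 1.40, 2.96 and 3.51 (6.67-fold, adjusted p = 0.00157). The extracellular chaperone Clu, also made by follicular dendritic cells, had 2.87, 2.70, 1.64, 2.52 and 3.45 (6.22-fold, adjusted p = 0.000677). Animal 3 was the lowest mouse for Smoc2, Plvap and Clu, and all 5 mice were above log2 1 for each. In a fit that lets the variance follow the mean log2 ratio (limma's variance trend), the folds of these 4 genes were the same but none was called, with adjusted p = 0.636 for Cxcl13, 0.161 for Smoc2, 0.123 for Plvap and 0.0887 for Clu. In that fit the stromal list below had 2 called members. Its trend runs over the ratio under test, so the variance given to a probe depends on its own mean.

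Of 30 listed genes of splenic stroma and endothelium 14 were tested, 4 were called higher and none lower, at a median log2 ratio of 0.39, against -0.02 over all probes tested. Over all probes 2.81% were called higher. Members were chosen with earlier results of these data known, so here and for every list below such contrasts are descriptions. Beside Cxcl13 and Clu the list gave Dcn, a small collagen-binding proteoglycan, at 0.99 ± 0.56 (SD, n = 5, adjusted p = 0.0246), and Cdh5, the adhesion molecule of endothelial junctions, at 0.41 ± 0.12 (adjusted p = 0.028). The Cdh5 call was lost when any of the 5 mice was left out (adjusted p up to 0.109), and that of Dcn without animal 1, 3 or 5 (up to 0.0928). The list had 2 called members without animal 1, 3 or 5 and 5 without animal 4. The collagen gene Col14a1, at 0.97 ± 0.69, missed the threshold (adjusted p = 0.0504), as did Cxcl12 at 0.38 ± 0.47 and the endothelial receptor Kdr at 0.48 ± 0.74. The classical fibrillar collagens gave 0.28 for Col1a1 (3 mice), -0.09 for Col1a2 and 0.27 for Col3a1 (4 mice), none called. Mfge8, a bridging protein that lets phagocytes take up dying cells and is made by follicular dendritic cells, was 3.64-fold higher (2.61, 2.31, 1.69, 0.92 and 1.79, adjusted p = 0.00327). Mgp, an inhibitor of matrix calcification outside the lists, was 3.01, 2.59, 1.87 and 3.75 in animals 1, 2, 3 and 5 and -0.15 in animal 4 (adjusted p = 0.0383), and it was singled out after its values were seen. The labels name the cells as splenocytes, and how far stromal cells were kept in the cell preparations was not given.

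**Figure D2:**
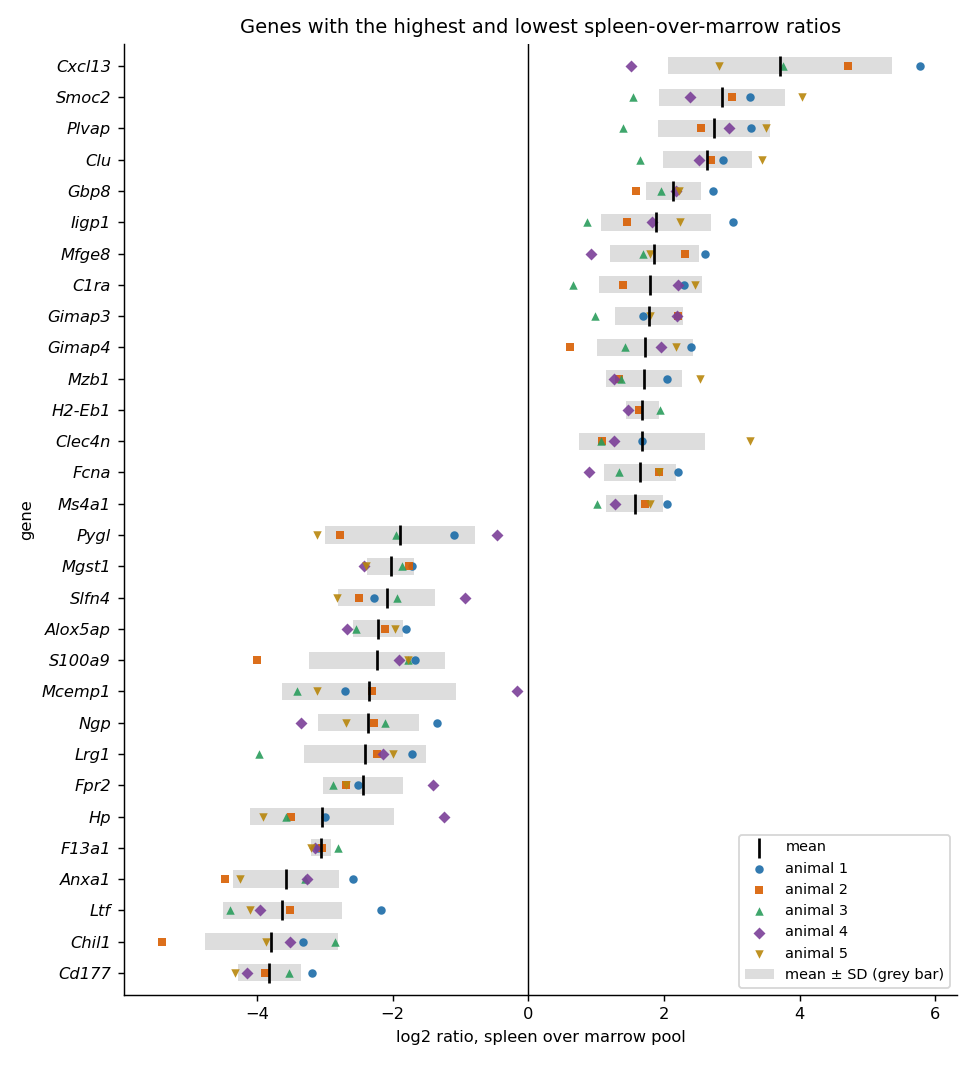
Log2 ratio of spleen over marrow pool (x axis) for the 15 named genes with the highest and the 15 with the lowest mean, 1 point per mouse, with the mean as a black tick and the SD as a grey bar. Cxcl13 spans 1.52 to 5.77, F13a1 spans -3.20 to -2.81, and animal 4 stands nearest 0 for Mcemp1, Hp, Fpr2, Slfn4 and Pygl.

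Several macrophage genes of the red pulp and marginal zone were also higher in spleen. Of 23 listed genes 13 were tested, 5 were called higher (against 2.81% of all probes) and none lower, and the list median was 0.49. Slc40a1, which encodes the iron exporter ferroportin, had ratios of 1.66, 1.39, 1.38, 1.42 and 1.65. These values lay closer together than those of any other called member, and the difference was 2.83-fold (95% interval 2.45 to 3.26, adjusted p = 0.000195). Siglec1, a sialic acid receptor of marginal metallophilic macrophages, had 0.69, 1.12, 0.75, 0.76 and 1.00 (1.82-fold, adjusted p = 0.00235). C1qb, a chain of the complement starter C1q, had 2.69, 2.46, 1.85, -0.25 and 2.17, with animal 4 alone below 0 on both its measurements (-0.19 and -0.32). Its mean of 1.78 was called (adjusted p = 0.0374, and 0.0516 with the variance trend), with 2.29 and adjusted p = 0.00138 without animal 4.

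The other called macrophage genes were Adgre1, the F4/80 antigen, at 0.77 ± 0.45, and Selenop, a secreted carrier of selenium, at 0.74 ± 0.37 (SD, n = 5). C1qb, Adgre1 and Selenop each lost the call without animal 1 (adjusted p = 0.137, 0.127 and 0.101), without animal 2 (0.0787, 0.0584 and 0.0533) and without animal 5 (0.125, 0.113 and 0.0856). Without animal 3, C1qb had an adjusted p of 0.0879, and without animal 4, Adgre1 had 0.0524. The list had 2 called members without animal 1, 2 or 5. Members with no call included Cd209b, a lectin of marginal zone macrophages, at 1.39, 2.11, 0.51, -0.55 and 1.79, Acp5 at 0.49 ± 0.52, Vcam1 at -0.05 ± 0.16 and Mrc1 at -0.12 ± 0.31. The other C1q chains were not called, with 0.41 ± 0.49 for C1qa (3 mice) and 0.15 ± 0.11 for C1qc (4 mice). Fcna, a complement-activating lectin of spleen macrophages, was 3.15-fold higher (2.20, 1.92, 1.34, 0.89 and 1.92, adjusted p = 0.00263).

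Complement genes were split. Of 13 tested genes of complement and pattern receptors, 3 were called higher and 3 lower, at a median of 0.20. Over all probes the shares were 2.81% higher and 3.86% lower. The higher ones were C1qb, Serping1, the inhibitor of C1, at 1.37, 1.36, 1.72, 0.92 and 1.42 (2.56-fold, adjusted p = 0.000718), and Clec4n, the fungal receptor Dectin-2. Clec4n had 1.68, 1.08, 1.07, 1.26 and 3.27, with animal 5 far above the others, a mean of 1.67 (adjusted p = 0.0205) and no call without animal 1 (adjusted p = 0.086). C1ra, a protease of the C1 complex outside the list, was 3.48-fold higher (2.29, 1.40, 0.66, 2.20 and 2.46, adjusted p = 0.00746). The lower ones were receptors that neutrophils and monocytes carry: C5ar1 at -0.59 ± 0.30, C3ar1 at -0.47 ± 0.15 and the glucan receptor Clec7a, known as Dectin-1, at -0.84 ± 0.39. Without animal 3 none of the 3 was called (adjusted p = 0.0748, 0.0615 and 0.0514). Without animal 1 or 2, neither C5ar1 (adjusted p = 0.116 and 0.073) nor C3ar1 (0.0698 and 0.0505) was called. Without animal 5, C3ar1 (0.0847) and Clec7a (0.0664) were not called, and without animal 4, C5ar1 was not (0.0694).

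Among lymphocyte genes there were 3 higher calls each in the lists of mature B and plasma cells and 1 each in those of T cells and regulatory T cells. The lists of T cells, mature B cells and neutrophils were used to read the direction of the ratio beside the dye labels, so that their side of 0 is no finding. Of 12 tested mature B cell genes 3 were called higher (against 2.81% of all probes) and none lower, at a median of 0.10. Cd22, an inhibitory receptor of B cells, had 1.44, 1.28, 1.54, 1.32 and 1.78 (2.77-fold, adjusted p = 0.000317). Ms4a1, which encodes CD20, had 2.05, 1.72, 1.01, 1.28 and 1.79 (2.97-fold, adjusted p = 0.00131). Fcmr, the receptor for IgM, had 1.86, 1.20, 1.58, -0.22 and 1.58 (adjusted p = 0.0442). All mice were above 1 for Cd22 and Ms4a1, and animal 4 alone was below 0 for Fcmr. The Fcmr call was lost without animal 1, 2, 3 or 5 (adjusted p up to 0.155), and without animal 4 it had an adjusted p of 0.00214. The other 9 genes of the list were not called, among them Cd79a at 0.03 ± 0.11 (3 mice), Blk at -0.03 ± 0.13, Fcer2a at -0.16 ± 0.16 and Cd72 at -0.68 ± 0.78.

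Plasma cell genes had 3 of 7 tested members called higher (against 2.81% of all probes) and none lower, at a median of 0.65. Mzb1, a chaperone for antibody secretion, had 2.05, 1.34, 1.37, 1.26 and 2.53 (3.28-fold, adjusted p = 0.00266). Prdm1, the master regulator of plasma cells, had 0.54, 0.77, 0.61, 0.77 and 0.64 (1.59-fold, adjusted p = 0.00372), and Sdf2l1, a chaperone partner of the endoplasmic reticulum, 0.65 ± 0.30 (adjusted p = 0.0217). Sdf2l1 lost the call without animal 3 (adjusted p = 0.0588) or animal 5 (0.0636). Derl3, which clears misfolded secretory proteins, had 1.56, 0.38, 0.20, 2.40 and 2.18 and missed the threshold (adjusted p = 0.0564), and Sdc1, which encodes CD138, was at -0.01 ± 0.08. B cell precursor genes had 1 of 8 members called, Cd93, lower at -0.83 ± 0.47 (adjusted p = 0.0272), and a median of -0.29. Cd93 kept its call only without animal 4 (adjusted p = 0.0067), against 0.0622 to 0.112 without any other mouse. The surrogate light chain genes were low but scattered, with Vpreb1 at -0.36, -0.60, -0.40, -0.69 and -2.08 (adjusted p = 0.0895) and Vpreb3 at -1.41, -3.59, -1.20, -0.66 and 0.22 (adjusted p = 0.136).

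Over all probes 2.81% were called higher and 3.86% lower. T cell genes had 1 of 10 tested members called, Cd8b1, at 0.87, 1.12, 0.48, 0.52 and 0.74 (1.68-fold, adjusted p = 0.00985, and 0.0571 without animal 1). Its partner chain in the CD8 coreceptor, Cd8a, was at -0.01 ± 0.18 (SD, n = 5). The list median was 0.25, with Cd4 at 0.35 ± 0.31 (4 mice), the costimulatory receptor Cd28 at 0.28 ± 0.20 and the adaptor Lat at 0.63 ± 0.69, none called. Of 9 genes of NK and cytotoxic cells 1 was called, Nkg7, a granule membrane protein that also belongs to the early granule list, lower at -0.50 ± 0.19 (adjusted p = 0.0242). It kept the call only without animal 2 (adjusted p = 0.0424), against 0.0517 to 0.0856 without any other mouse. The NK receptors Ncr1 and Klrb1c were at 0.02 ± 0.23 and -0.03 ± 0.32 (4 mice). Regulatory T cell genes had 1 of 6 called, Tnfrsf18, the receptor GITR, at 0.80, 0.84, 0.56, 0.45 and 0.56 (1.56-fold, adjusted p = 0.00771). Dendritic cell genes had 1 of 6 called, Batf3, a factor needed for cross-presenting dendritic cells. It had 2.44, 1.45, 1.52, -0.16 and 2.40 (adjusted p = 0.0427, and 0.0512 with the variance trend), was lost without animal 1, 2, 3 or 5 (up to 0.148) and had adjusted p = 0.00571 without animal 4. Xcr1, a receptor of the same cells, had 0.94, -0.33, -0.17, 0.83 and 1.01 (adjusted p = 0.258).

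Genes of antigen presentation by MHC class II were above 0 in all 6 tested members, at a median of 0.54. Of them 4 were called higher (against 2.81% of all probes). H2-Eb1, a beta chain of the class II molecule, had 1.63, 1.94 and 1.47 in animals 2, 3 and 4, with no value in animals 1 and 5 (3.20-fold, n = 3, adjusted p = 0.00268). Without animal 2, 3 or 4 it had values in fewer than 3 mice and was not tested. H2-Aa, an alpha chain, had 0.84, 1.67, 2.53, 0.71 and 1.13 (2.60-fold, adjusted p = 0.0197). Ciita, the coactivator that turns class II genes on, was at 0.52 ± 0.14 (adjusted p = 0.0143), and H2-Ob, a modulator of peptide loading in B cells, at 0.56 ± 0.19 (adjusted p = 0.0171). Without animal 1 the calls of H2-Aa (adjusted p = 0.0528), Ciita (0.0632) and H2-Ob (0.0815) were lost, and so they were without animal 5 (0.0685, 0.0629 and 0.0684). Class I genes had a median of 0.32 with 1 of 9 called higher, the loading factor Pdia3 at 0.43 ± 0.14, and 1 lower, the chaperone Calr at -0.44 ± 0.18. Calr lost the call when any of the 5 mice was left out (adjusted p = 0.0534 to 0.137) and Pdia3 without animal 1, 3, 4 or 5 (0.0548 to 0.119), and a second Calr probe gave -0.33 ± 0.31 (adjusted p = 0.167). The immunoproteasome genes Psmb8 (0.67 ± 0.49, adjusted p = 0.0642) and Psmb10 (0.65 ± 0.45, adjusted p = 0.0564) missed the threshold.

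Interferon-stimulated genes had 4 of 10 tested members called higher (against 2.81% of all probes) and none lower, at a median of 0.33. Gbp2, a GTPase that attacks the vacuoles of intracellular pathogens, had 2.13, 1.64, 0.95, 1.27 and 1.22 (2.72-fold, adjusted p = 0.00268). Cxcl10, a chemokine for activated T cells, had 1.34, 1.65, 0.86, 0.22 and 0.60 (1.91-fold, adjusted p = 0.034). The antiviral GTPase Mx2 (0.48 ± 0.21) and Rtp4 (0.40 ± 0.17) gave smaller differences. Mx2, Rtp4 and Cxcl10 each lost the call without animal 1 (adjusted p = 0.0937, 0.158 and 0.131), animal 2 (0.0774, 0.0921 and 0.0542) or animal 3 (0.0798, 0.0996 and 0.0758), which left Gbp2 as the only called member. Mx2 and Rtp4 were also lost without animal 4 (0.0718 and 0.0519), and Rtp4 and Cxcl10 without animal 5 (0.079 and 0.0819). Outside the list, Gbp8, a relative of Gbp2, was 4.40-fold higher (2.73, 1.59, 1.96, 2.18 and 2.22, adjusted p = 0.000412). Iigp1, an immunity-related GTPase of the same defence, was 3.68-fold higher (3.02, 1.46, 0.87, 1.82 and 2.23, adjusted p = 0.00781). Gimap3 and Gimap4, GTPases of lymphocyte survival, had means of 1.78 ± 0.50 (adjusted p = 0.00142) and 1.72 ± 0.71 (adjusted p = 0.00724). In the list, Ifit2 at -0.31 ± 0.38 and Oasl2 at -0.04 ± 0.16, induced by type I interferon, were not called.

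**Figure D3:**
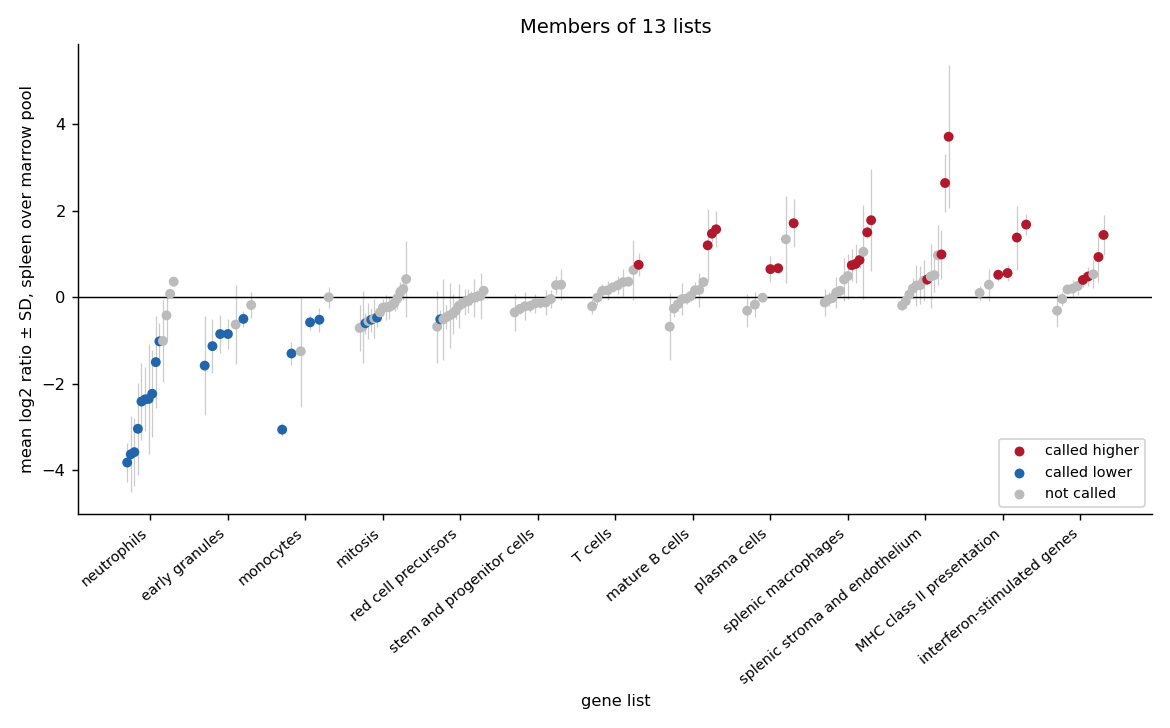
Mean log2 ratio of spleen over marrow pool (y axis, bars are the SD over 3 to 5 mice) for each tested member of 13 lists (x axis), coloured by whether it was called higher, called lower or not called. The 10 called neutrophil genes reach from -3.82 to -1.02, and the tested members of the stem and progenitor list hold no call. The T cell, mature B cell and neutrophil lists were used to read the direction of the ratio, so their side is no finding.

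The genes farthest below 0, so more abundant in the marrow pool, were those of maturing neutrophils. Their list was among those used to read the direction of the ratio beside the dye labels, so its side of 0 is no finding. Of 27 listed neutrophil genes 14 were tested, 10 were called lower and none higher (background for lower calls 3.86%), at a median of -2.29. Cd177, a surface protein of neutrophils, had ratios of -3.19, -3.89, -3.53, -4.15 and -4.32 (14.1-fold, 95% interval 10.8 to 18.4, adjusted p = 6.25e-05). Ltf, the lactoferrin of secondary granules, had -2.17, -3.51, -4.40, -3.96 and -4.10 (12.4-fold, adjusted p = 0.000644). Animal 1 was the nearest to 0 for both, and all mice were below log2 -2. Chil1, a chitinase-like granule protein outside the list, had -3.33, -5.41, -2.85, -3.51 and -3.87 (13.9-fold, adjusted p = 0.000677). Anxa1, an anti-inflammatory annexin, had -2.58, -4.48, -3.29, -3.27 and -4.25 (11.9-fold, adjusted p = 0.000427). In animal 2 the Anxa1 measurements were -2.96 and -6.0, the second at the bound of the deposited ratios. With the variance trend the folds were the same, but the calls of Cd177 (adjusted p = 0.0792), Chil1 (0.0831), Ltf (0.0608) and Anxa1 (0.0548) ended, and the list had 6 called members.

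The remaining called neutrophil genes held granule cargo, surface receptors and a chromatin enzyme. Hp, which encodes haptoglobin, had -3.0, -3.50, -3.58, -1.24 and -3.91 (8.25-fold, adjusted p = 0.00272). Ngp, a granule protein of neutrophil precursors, had -1.35, -2.28, -2.12, -3.36 and -2.69 (5.13-fold, adjusted p = 0.00196). S100a9, a subunit of calprotectin, had -1.67, -4.00, -1.77, -1.91 and -1.78 (4.68-fold, adjusted p = 0.00861), with animal 2 apart from the others. Lrg1, a secreted glycoprotein of granules, had -1.72, -2.23, -3.98, -2.15 and -1.99 (adjusted p = 0.00402), with animal 3 apart. Mcemp1, a myeloid membrane protein, had -2.71, -2.31, -3.42, -0.17 and -3.12 (adjusted p = 0.0187). Animal 4 was thus near 0 for Mcemp1 and shallow for Hp while it was the lowest mouse for Ngp and at -4.15 for Cd177. Csf3r, the receptor for the neutrophil growth factor G-CSF, was at -1.02 ± 0.42 (adjusted p = 0.00995), and Padi4, which citrullinates histones, at -1.5 ± 1.07 (adjusted p = 0.0466). Csf3r lost the call without animal 1 (adjusted p = 0.0573), Mcemp1 without animal 1, 3 or 5 (0.0859, 0.0534 and 0.0818), and Padi4 without animal 1, 2, 3 or 4 (up to 0.162) and with the variance trend (0.0516). The list kept at least 7 called members without any mouse.

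Not every neutrophil gene was low. Chil3, a chitinase-like protein of neutrophils and macrophages, was at 0.08 ± 0.08 (4 mice), and Pglyrp1, a granule protein that binds bacterial walls, at 0.36 ± 0.10 (3 mice). The gelatinase Mmp9 had -1.05, -0.32, -2.05, 0.17 and -1.80 and was not called (adjusted p = 0.106). The granule genes Camp, Lcn2 and S100a8 had a value in fewer than 3 mice and were not tested. Outside the list, the chemoattractant receptor Fpr2 was 5.42-fold lower (-2.52, -2.69, -2.88, -1.41 and -2.69, adjusted p = 0.000677). Alox5ap, which presents arachidonate to 5-lipoxygenase, was 4.66-fold lower (-1.81, -2.12, -2.54, -2.67 and -1.97, adjusted p = 0.000274). The detoxifying transferase Mgst1 was 4.08-fold lower (-1.71, -1.76, -1.87, -2.43 and -2.39, adjusted p = 0.000317), and Slfn4, a myeloid member of the Schlafen family, 4.27-fold (adjusted p = 0.00295). Pygl, the phosphorylase that opens glycogen stores, was 3.69-fold lower (-1.10, -2.78, -1.95, -0.47 and -3.12, adjusted p = 0.0242). It lost the call without animal 1, 2, 3 or 5 (adjusted p up to 0.0808).

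Promoters are shown for 4 of the granulocyte genes with a RefSeq promoter, because C/EBP factors are known to drive granule genes, and for Cxcl13, the gene with the highest ratio, as a contrast. Each run covers 250 bases before to 50 bases after the start in RefSeq (GRCm38.p6), read 5′ to 3′ on the gene's strand, and capitals mark matches to the C/EBP core TTNNGNAA on either strand. The Cd177 promoter lies at chr7:24760262-24760561 on the minus strand with 1 match, at position -55 from the start. That of Ltf lies at chr9:111019042-111019341 (plus strand, 2 matches) and that of Ngp at chr9:110419558-110419857 (plus strand, 3 matches). That of S100a9 lies at chr3:90695672-90695971 (minus strand, 2 matches) and that of Cxcl13 at chr5:95956689-95956988 (plus strand, 2 matches).
Cd177: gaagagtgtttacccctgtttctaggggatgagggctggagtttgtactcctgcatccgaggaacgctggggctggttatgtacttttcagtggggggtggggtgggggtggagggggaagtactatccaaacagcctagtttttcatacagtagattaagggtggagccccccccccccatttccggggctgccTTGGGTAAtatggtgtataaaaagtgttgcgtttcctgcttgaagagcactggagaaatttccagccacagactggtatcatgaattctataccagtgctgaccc
Ltf: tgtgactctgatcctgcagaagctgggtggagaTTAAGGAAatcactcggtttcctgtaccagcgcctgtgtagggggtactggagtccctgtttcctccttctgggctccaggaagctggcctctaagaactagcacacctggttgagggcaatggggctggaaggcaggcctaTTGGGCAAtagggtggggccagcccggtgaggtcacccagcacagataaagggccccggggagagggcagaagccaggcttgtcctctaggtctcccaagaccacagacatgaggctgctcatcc
Ngp: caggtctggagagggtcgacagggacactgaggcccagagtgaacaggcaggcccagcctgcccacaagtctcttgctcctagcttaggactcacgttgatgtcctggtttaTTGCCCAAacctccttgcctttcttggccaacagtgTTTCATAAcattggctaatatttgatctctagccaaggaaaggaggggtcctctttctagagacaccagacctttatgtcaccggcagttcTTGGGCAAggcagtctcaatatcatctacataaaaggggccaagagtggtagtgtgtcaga
S100a9: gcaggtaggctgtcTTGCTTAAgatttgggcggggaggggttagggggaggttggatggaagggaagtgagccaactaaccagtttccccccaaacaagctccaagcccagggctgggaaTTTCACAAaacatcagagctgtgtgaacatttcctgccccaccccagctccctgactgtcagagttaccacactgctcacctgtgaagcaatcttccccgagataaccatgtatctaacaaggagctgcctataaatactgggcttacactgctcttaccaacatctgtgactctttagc
Cxcl13: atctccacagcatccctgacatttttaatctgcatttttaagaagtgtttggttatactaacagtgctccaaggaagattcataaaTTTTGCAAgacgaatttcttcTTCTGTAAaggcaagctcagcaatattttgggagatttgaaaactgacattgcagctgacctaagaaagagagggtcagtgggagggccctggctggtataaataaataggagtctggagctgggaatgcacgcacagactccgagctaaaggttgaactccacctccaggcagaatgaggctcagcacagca

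Matches occurred on both sides of the comparison. The core was in the promoters of 10 of the 13 lowest genes with an entry used and of 6 of the 7 highest. Entries on a single chromosome were left out of these counts, but not of the shares over all calls. The counts are of genes with a match in any of their promoters, whereas the shares are of single promoters, so they are not on the same scale. Over all calls it was in 34.6% of 289 promoters of genes called lower and in 37.4% of 190 promoters of genes called higher, against 34.6% of 6392 promoters of all genes tested and 40.7% of the 32851 promoters in the table. Of the other motifs searched on both strands, the GATA motif, with the letters AGATAA, was in 8.30% of the lower, 6.32% of the higher and 7.99% of the tested promoters. PU.1 (GAGGAAGT) was in 3.46%, 4.21% and 2.61%, RUNX (TGTGGTT) in 3.11%, 4.74% and 4.01%, and ETS (ACAGGAAGT) in 1.04%, 2.11% and 1.14%. The shares are descriptions of letters in these windows and carry no test.

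Monocyte genes called against the pool were likewise all on the marrow side. Of 16 listed 6 were tested and 4 were called lower (against 3.86% of all probes), none higher, at a median of -0.91. F13a1, the A subunit of coagulation factor XIII, which monocytes carry, had -3.10, -3.05, -2.81, -3.14 and -3.20. Its SD of 0.15 was the smallest among the 15 lowest genes, and it had the smallest p of the named genes (8.35-fold, 95% interval 7.24 to 9.62, adjusted p = 8.43e-06). Clec4e, the mycobacterial glycolipid receptor Mincle, had -1.21, -0.98, -1.66, -1.16 and -1.51 (2.47-fold, adjusted p = 0.000779). The matrix proteoglycan Vcan was at -0.58 ± 0.18 (adjusted p = 0.0126) and Ms4a6c at -0.52 ± 0.28 (adjusted p = 0.0427). Both were lost without animal 1 (adjusted p = 0.061 and 0.0933) or animal 5 (0.0581 and 0.129), which left 2 called members, and Ms4a6c also without animal 3 (0.0944) or 4 (0.1). Lyz2, the lysozyme of all myeloid cells, had -1.24, -0.35, -2.63, 0.36 and -2.37 (adjusted p = 0.129), and Cx3cr1, a receptor of patrolling monocytes, was at 0.00 ± 0.24 (4 mice).

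Early granule genes, of promyelocytes, had 5 of 7 tested members called lower (against 3.86% of all probes) and a median of -0.85. Mpo and Elane were measured in fewer than 3 mice. Prtn3, a serine protease of primary granules, had -2.28, -1.74, -1.49, 0.28 and -2.67 (adjusted p = 0.047). Cst7, an inhibitor of cathepsins, was at -1.13 ± 0.63, Plac8 at -0.85 ± 0.34 and Gfi1, a repressor needed to make neutrophils, at -0.85 ± 0.44 (SD, n = 5). Ctsg, another primary granule protease, had -0.26, -2.20, -0.68, -0.07 and 0.08 and was not called. The called members were 1 without animal 1 and 2 without animal 3 or 5. Without animal 1 Plac8 kept its call, and Prtn3 (adjusted p = 0.166), Gfi1 (0.0968), Cst7 (0.0699) and Nkg7 (0.0517) lost theirs. Prtn3 was lost without any mouse but animal 4, without which it had adjusted p = 0.00479, and with the variance trend (0.053). In these bulk samples, fewer cells of a type and less RNA per cell cannot be told apart. List medians on one side of 0 in every mouse were not particular to the myeloid, macrophage, plasma cell, stromal and MHC class II lists. Those of B cell precursors, stem cells, bone cells and mitosis were also below 0 in all 5 mice, and those of T cells, interferon-stimulated genes, lymphocyte factors, complement and the secretory pathway above it.

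**Figure D4:**
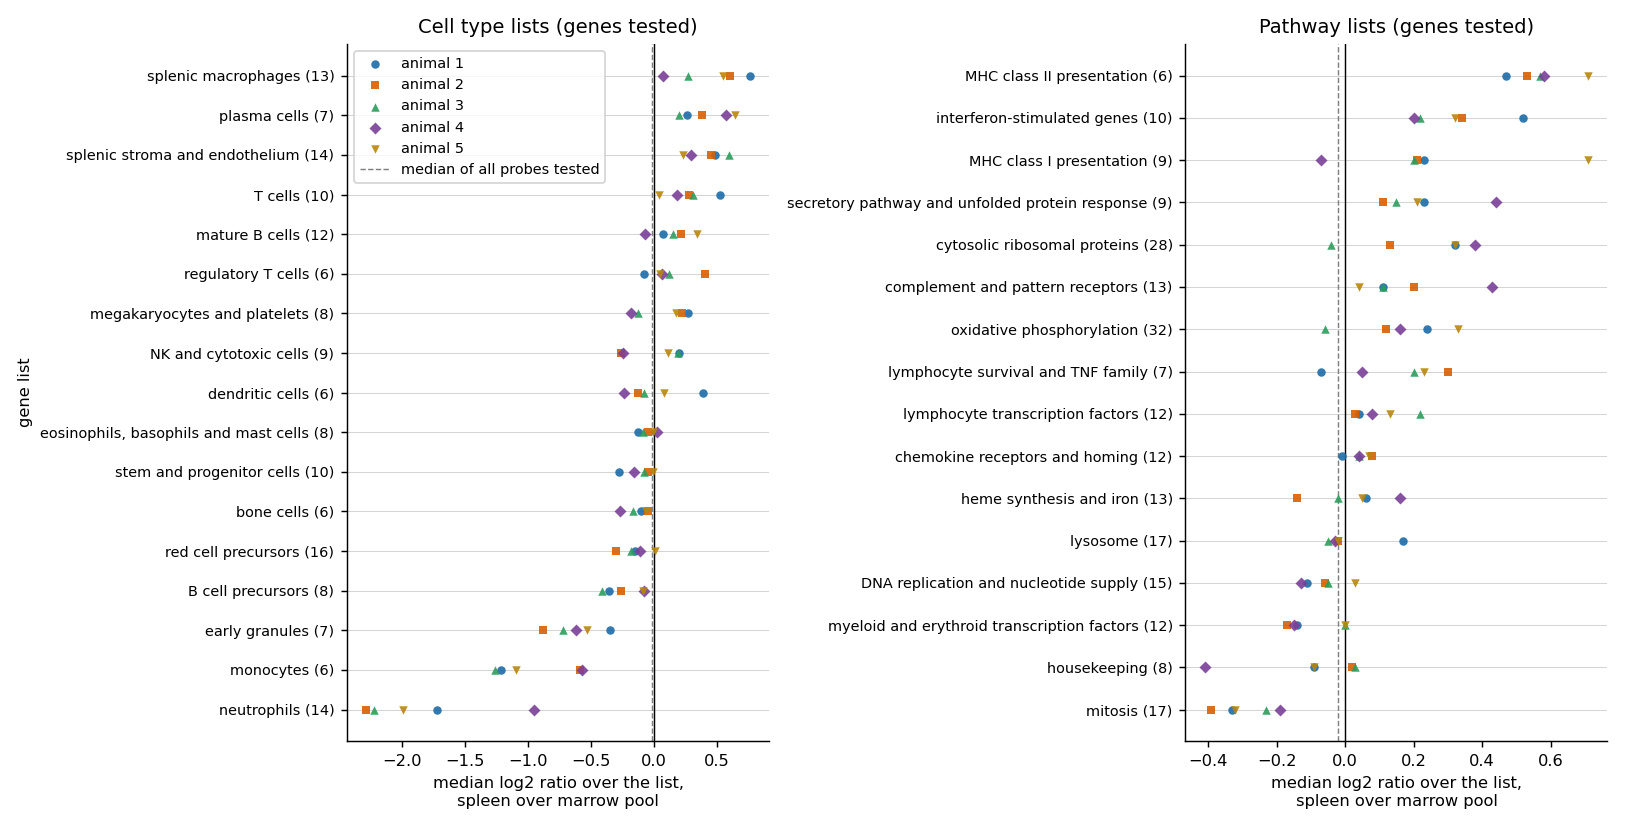
Median log2 ratio of each list in each mouse (x axis), for 17 cell type lists (left) and 16 pathway lists (right), with the number of genes tested in brackets and the median of all probes as a dashed line. Neutrophil, monocyte and early granule lists are below 0 in 5 of 5 mice, and macrophage, plasma cell, stromal and MHC class II lists above 0 in 5 of 5. The side of the neutrophil list is no finding, as it was used to read the direction of the ratio.

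Genes of the other marrow lineages had few calls, beside 2.81% of all probes called higher and 3.86% called lower. Red cell precursor genes had 1 of 16 tested members called, Ank1, which anchors the red cell skeleton, lower at -0.51 ± 0.21 (adjusted p = 0.0249), and a median of -0.18. It lost the call without animal 1 (adjusted p = 0.0938), 3 (0.055) or 5 (0.089). The heme enzyme Alas2 was at -0.31 ± 0.19, the Rh-associated protein gene Rhag at -0.68 ± 0.83 and the erythroid regulator Klf1 at 0.02 ± 0.14 (4 mice), none called. Stem and progenitor genes had 0 of 10 called at a median of -0.14, for example Meis1 at -0.20 ± 0.13 and Hoxa7 at -0.27 ± 0.11. Megakaryocyte and platelet genes had 0 of 8 called at 0.08, with the platelet chemokine Pf4 at 0.32 ± 0.39. Bone cell genes had 0 of 6 called at -0.15, for example Alpl, the bone alkaline phosphatase, at -0.51 ± 0.50. Genes of eosinophils, basophils and mast cells had 1 of 8 called, the mast cell carboxypeptidase Cpa3 at -1.10 ± 0.73 (adjusted p = 0.0408), and a median of 0.09. Cpa3 had an adjusted p of 0.0516 to 0.143 without animal 1, 2, 3 or 4. By limma's unadjusted p below 0.05, 2 stem and progenitor, 0 megakaryocyte and 3 bone cell genes would pass. A p above the threshold does not show that these genes are equal in both tissues.

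Calls among genes of cell division were all on the marrow side. Of 17 tested mitosis genes 3 were called lower (17.6%, against 3.86% of all probes) and none higher, at a median of -0.24. Prc1, which bundles spindle microtubules, was at -0.60 ± 0.24 (adjusted p = 0.0189), the anaphase activator Cdc20 at -0.47 ± 0.22 (0.0374) and the cyclin Ccna2 at -0.52 ± 0.28 (0.0429). Without animal 1 or without animal 5, no member was called (Prc1 adjusted p = 0.0891 and 0.0522). Without animal 2 only Prc1 was called, as Cdc20 (adjusted p = 0.0765) and Ccna2 (0.0958) lost the call. Cdc20 was also lost without animal 3 (0.0824) and Ccna2 without animal 4 (0.0888), and no member was called without animals 2 and 4 together. The mitotic kinase Cdk1 was at -0.19 ± 0.10 and the spindle factor Tpx2 at -0.71 ± 0.54, not called. DNA replication genes had 0 of 15 called at a median of -0.01, with the clamp gene Pcna at -0.48 ± 0.72, and 3 had an unadjusted limma p below 0.05.

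Growth and energy lists had 0 to 3 calls each, beside 2.81% of all probes called higher and 3.86% called lower. Cytosolic ribosomal protein genes had 3 of 28 called higher (10.7%), with Rpl19 at 0.92 ± 0.44, Rps15 at 0.75 ± 0.49 and Rpl12 at 0.73 ± 0.38. Their median was 0.11. Without animal 1 or 5 no ribosomal gene of the list was called. Oxidative phosphorylation genes had 1 of 32 called higher, the complex I subunit Ndufa9 at 0.46 ± 0.15, and a median of 0.15. Lysosome genes had 0 of 17 called (median -0.02), and 5 had an unadjusted limma p below 0.05. Heme and iron genes had 1 of 13, Slc40a1 again (median -0.02), with the ferritin chains Fth1 at 0.58 ± 0.43 and Ftl1 at 0.42 ± 0.41 not called. Secretory pathway genes had 1 of 9 called higher, the stress response factor Atf4 at 0.60 ± 0.21, and 1 lower, Calr (median 0.14). Housekeeping genes had 1 of 8 called higher, the elongation factor Eef1a1 at 1.40, 1.20, 0.08, 1.75 and 1.37 (median of the list -0.08), with Gapdh at -0.18 ± 0.20 (4 mice) and Tbp at -0.08 ± 0.24. Ndufa9, Atf4 and Eef1a1 each lost the call without animal 1 (adjusted p = 0.0824, 0.0643 and 0.0974). Ndufa9 lost it too without animal 2 (0.0548) or 5 (0.0821), and Eef1a1 without animal 4 (0.0609) or 5 (0.0864).

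Lists of regulators, homing receptors and the TNF family had 0 to 3 calls each, beside 2.81% of all probes called higher and 3.86% called lower. Lymphocyte transcription factors had 0 of 12 called (median 0.10, Id3 at 0.34 ± 0.15, 3 with an unadjusted limma p below 0.05) and myeloid and erythroid factors 1 of 12, Gfi1 again (median -0.11). Chemokine receptor and homing genes had 1 of 12 called, the integrin chain Itgb1, higher at 0.65 ± 0.23 (adjusted p = 0.0124), and a median of 0.04. Itgb1 lost the call without animal 1 (adjusted p = 0.0615) or 5 (0.0582). Cxcr4, the receptor that holds leukocytes in the marrow through CXCL12, was read by 2 probes. The probe used in the list had -0.63, -3.14, -0.45, -0.30 and -1.43 and was not called (adjusted p = 0.119). The other probe, singled out after its values were seen, had -1.57, -1.74, -1.44, -1.79 and -1.98 and was called lower (3.26-fold, adjusted p = 0.000195). Ccr6, a receptor of B cells and dendritic cells, had 1.78, 1.58, 0.01, 0.39 and 2.45 (adjusted p = 0.071). In the TNF family, 2 of 7 were called higher (28.6%, median -0.02), Tnfrsf18 and Tnfrsf13b. Tnfrsf13b is the receptor TACI, and was at 0.75 ± 0.38 (adjusted p = 0.0232). Its ligand Tnfsf13b, the B cell survival factor BAFF, was lower at -0.98, -3.26, -1.57, -0.70 and -1.07 (2.86-fold, adjusted p = 0.0403), with animal 2 far below the rest. Without animal 2 it was at -1.08 (adjusted p = 0.00844), and without animal 1, 3, 4 or 5 it lost the call (adjusted p up to 0.0999). Tnfrsf13b lost the call without animal 1, 2, 3 or 5 (adjusted p up to 0.0971).

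For many genes, measurements of different mice differed by more than the technical measurements of a mouse did. On 5247 probes measured throughout, limma's F-test of equal animals called 2198 (41.9%), where reference and dye are shared and cancel. Of 536 probes called against the marrow pool that entered this test, 263 were called in it. The error of that test is the spread between the technical measurements of a mouse. Whether these share a slide is not given, so differences between mice and between their arrays cannot be told apart. Ctrb1, a pancreatic digestive protease, had the smallest p, with 4.21 in animal 2, 1.67 in animal 3, and -0.06, -0.02 and -0.33 in animals 1, 4 and 5 (adjusted p = 5.95e-06). The lipogenic regulator Mid1ip1 had 2.21 in animal 2 and -1.33 to -0.91 elsewhere. Other genes were lowest in animal 2, with the zinc finger gene Sall2 at -3.50, the scaffold gene Slc9a3r2 at -2.68, the mitochondrial translation release factor Mrpl58 at -2.65, Pcsk4 at -2.46 and the chromatin remodeller Smarcc1 at -2.68, which was also at -1.03 in animal 5. Animal 3 was lowest for Ifitm2, an antiviral membrane protein, at -3.65, for Rps27 at -2.08 and for the coat protein gene Cope at -2.01.

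**Figure D5:**
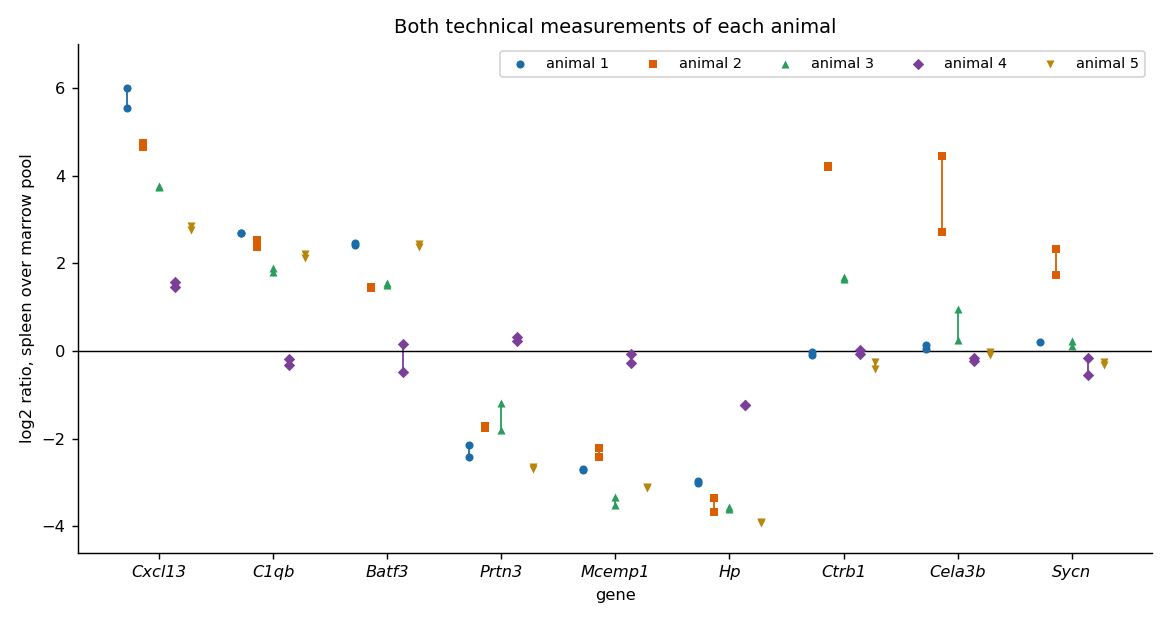
Log2 ratio of spleen over marrow pool (y axis) of 9 genes (x axis) on both technical measurements of each mouse, joined by a line. Animal 4 is near 0 on both measurements for C1qb, Prtn3 and Mcemp1 and at -0.47 and 0.15 for Batf3, and animal 2 alone is above 4 for Ctrb1.

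Single mice departed from the rest mainly by low values in animals 2 and 3. In animal 2, 97 of the 5247 probes lay more than log2 1.5 below every other mouse, in animal 3 there were 45, in animal 4 there were 3, and in animals 1 and 5 none. In the other direction, above every other mouse, the counts were 3 in animal 2, 4 in animal 4, 5 in animal 5 and 0 in animals 1 and 3. Among called probes, animal 4 was at less than 0.25 of the mean of the other mice for 41, against 3, 7, 17 and 10 for animals 1, 2, 3 and 5. For C1qb, Prtn3 and Mcemp1 both measurements of animal 4 agreed in lying near 0, whereas those of Batf3 were -0.47 and 0.15. All are genes for which the other 4 mice were far from 0. The correlation of the ratios between mice ran from 0.33 (animals 3 and 4) to 0.75 (animals 1 and 5), across probes that share the reference. Without animals 2 and 4 together, 425 probes were called, and 53 of 81 named genes kept the call. Whether these departures come from the animals or from their arrays was not tested.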

How the data were processed

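RNA of fresh spleen cells was purified, amplified with amino allyl labelling and hybridised with a marrow pool on 2-colour arrays, per the labels' protocols. The authors deposited log2 ratios whose measurements centre near 0, taken as spleen over marrow from the dye labels and the lists of T cells, mature B cells and neutrophils. The deposited log2 values end at 6.0 on either side, and 59.9% of them are present. How background was corrected and the values normalized and filtered, and with which software, is not given by the labels or headers used here. Nor is it given whether the technical measurements of a mouse share a slide.

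Both technical measurements were averaged per mouse. Probes with a value in 3 or more mice entered limma 3.58.1 (R 4.3.3; lmFit and eBayes, mean against 0), with Benjamini-Hochberg adjustment at 0.05. The F-test among mice used the 10 measurements of 5247 probes. Tables and figures were made with Python 3.11.15, pandas 2.3.3 and matplotlib 3.10.9. Gene names came from the platform annotation and were updated through gene IDs: 10032 probes name 1 gene, 170 several and 3241 none. Depth is unknown for arrays, and their number limits the precision; the median SE was 0.112.

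The 33 lists (705 symbols, of which 542 have a probe) and the members were chosen with earlier results of these data known. Genes were named by a rule: the 15 highest and 15 lowest called means with every mouse on the same side of 0, up to 6 members per list by smallest p with further called ones and some for contrast, and the 10 smallest p of the F-test. On simulated data with 8728 probes the test against 0 found 85 of 100 changes of log2 1 and 97 of 100 of log2 2, with 4 false among 186 calls. The F-test, on 5247 probes, found 58 and 89 of 100, with 6 false among 153, where the changes were placed in a single mouse. The simulated noise was normal and independent, with the spread of each probe. It held no dye effect and no error shared by the probes of an array, so these figures leave such errors out. Alternatives covered centring, quantile and spread scaling, technical measurements alone or as a random block, variance trend, array weights, a size threshold of log2 0.5, an adjusted p of 0.01, the probe filter, gene averages, and each mouse left out. Treated samples were left out.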

Additional observations from a re-analysis of the deposited data

Results flagged for a closer look

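Of 114 values tested for a mouse that stands apart from the others, 7 did so by Dixon's criterion, and chance alone gives about 1 in 20. Animal 4 stood apart for C1qb at -0.25, for Fpr2 at -1.41 and for the median of the housekeeping list at -0.41. Animal 2 stood apart for S100a9 at -4.00, animal 3 for Lrg1 at -3.98, animal 5 for Clec4n at 3.27 and animal 1 for the median of the lysosome list at 0.17. Animal 4 also had the lowest technical correlation (0.581) and the most repeated values, and their part in its values was not tested.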

How the results depend on the processing

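The 82 named genes of these counts were called in the main test, and none changed direction under any alternative in which it was tested. Other genes named in the text were not followed. Where every mouse lay on one side of 0, leaving mice out could not change the direction. Against 582 calls (245 higher, 337 lower), the technical measurements as a random block of each mouse gave 1065 (444 and 621), a test against a size of log2 0.5 gave 87 (37 and 50), and an adjusted p of 0.01 gave 186 (75 and 111). Leaving out 1 mouse gave 203 to 488 calls (82 to 222 higher, 121 to 266 lower). The call of 46 of 82 named genes was lost in at least 1 of these 5 fits. The 36 others include H2-Eb1, which was not tested without animal 2, 3 or 4. In the F-test, against 2198 calls, an adjusted p of 0.01 gave 1110, and leaving out 1 mouse gave 1472 to 2551. The call counts of the other alternatives were within 1.5 times of the main counts. Of 82 named genes, 82 were called after quantile normalization, 79 after centring on probes present throughout, 70 with a variance trend, 68 with the first and 65 with the other technical measurement alone. Without repeated values, chosen after seeing the data, 620 probes were called, and without values shared with Hba-a1, 577. The median of the heme and iron list was 0.10 with probes of a gene averaged, in place of -0.02. No paired analysis was possible because 1 group is compared with a common reference. Missing values limit what could be tested: 2784 of 13443 probes had no value on any measurement.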

Other observations

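The gene families here were listed after the values had been seen, so their counts are descriptions. Immune GTPases had several higher calls, against 2.81% of all probes. Of 4 tested guanylate-binding proteins 3 were called higher, with Gbp2b at 1.68, 2.50, 1.26, -0.05 and 2.03 beside Gbp2 and Gbp8. Of 4 tested immunity-related GTPases 3 were called higher, Iigp1, Ifi47 (0.99 ± 0.34, SD, n = 5, adjusted p = 0.00582) and Irgm1 (0.48 ± 0.17, adjusted p = 0.0242). Both tested GIMAP genes were higher.

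Of 22 tested genes of the actin cytoskeleton 9 were called lower (against 3.86% of all probes) and none higher, at a median of -0.39. Flna, which crosslinks actin filaments, had -1.19, -1.09, -0.98, -0.88 and -0.93 (adjusted p = 0.000677), and Myh9, a nonmuscle myosin, -0.95, -1.02, -1.21, -0.74 and -1.15 (adjusted p = 0.00106). The filament-severing Cfl1 was at -1.44 ± 0.59 and the monomer-binding Pfn1 at -1.41 ± 0.79. Genes of glycolysis and glycogen had 5 of 12 called lower (against 3.86% of all probes), at a median of -0.68. Among them were the glycolytic mutase Pgam1 at -1.15 ± 0.48, the glycogen branching enzyme Gbe1 at -0.76 ± 0.15 and Pygl. Mitochondrial ribosome genes had 3 of 43 called higher (against 2.81% of all probes), at a median of 0.17. In this list 35 of 43 lay above 0, against 46.5% of all probes tested. The mean over its members was -0.02 in animal 2 and -0.05 in animal 3. The neutrophil list, at a median of -2.29, lay on the same side as the actin and glycogen genes, and its part in them was not tested.

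Pancreatic digestive enzyme genes were high in animal 2. Of 6 tested members none was called against 0 by limma (0 at an unadjusted p below 0.05), and 5 were above log2 1 in that mouse: Ctrb1 at 4.21, Cela3b at 3.58, Sycn at 2.03, Reg1 at 1.31 and Clps at 1.27. The list median was 1.67 in animal 2 and between -0.29 and 0.21 in the others, with Ctrb1 at 1.67 in animal 3. Both measurements of animal 2 showed it, with 4.22 and 4.20 for Ctrb1.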
